A study of Homo sapiens with 2 samples.

Results

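The genes examined were 8 genes of prostate lineage identity and steroid response in control and Akt1/2 double knockout prostate cancer cells. They were the lineage transcription factors FOXA1, HOXB13, GATA2, SPDEF, ERG and GRHL2 and the steroid receptors NR3C1 and PGR. The genes were chosen by symbol, and all 8 were found among the 19607 genes of the deposited table. The cells were CWR22rv1, a human prostate cancer cell line derived from a relapsed xenograft. One group was CWR22rv1 with the genotype wild type, called control here, and the other was CWR22rv1 with the genotype Akt1/2 knockout, called Akt1/2 DKO. AKT1 and AKT2 are kinases that carry growth factor signals from PI3K. The knockout was made with CRISPR/Cas9 guides against both genes, followed by puromycin selection and isolation of single clones, so the Akt1/2 DKO line is a clone. The labels do not say which clone was sequenced, and they name no treatment for either group. Each group was 1 RNA sequencing library, so every difference given here is between 2 libraries, has no replicate check and carries no p-value. What the knockout does and what sets 1 clone apart from its parent cannot be told apart. In bulk RNA, fewer cells with a transcript and less of it per cell cannot be told apart either.

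Lineage transcription factors set which enhancers a prostate cell can use. FOXA1 is a pioneer factor that opens closed chromatin for steroid receptors, and HOXB13, a posterior homeobox factor typical of the prostate, and GATA2, a zinc finger factor, bind many of the same enhancers. SPDEF is an ETS factor of luminal and secretory epithelium, GRHL2 is a grainyhead factor that maintains epithelial junction genes, and ERG is an endothelial ETS factor that gene fusions switch on in many prostate cancers. NR3C1 is the glucocorticoid receptor and PGR the progesterone receptor, both ligand-activated transcription factors held by chaperones in the absence of hormone.

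The control library held 9970820 reads assigned to genes and the Akt1/2 DKO library 10718650. AKT1, a targeted gene, had 2645 reads in control cells and 591 in Akt1/2 DKO cells, a log2 fold change of -2.31 (95% counting interval -2.44 to -2.18). AKT2, the other targeted gene, had 2362 and 667 reads, a log2 fold change of -1.97 (-2.10 to -1.85). Both targeted transcripts were lower in the library labelled as the knockout. Every interval in this text is a 95% counting interval, which covers counting error only. Fold changes are of reads scaled by the trimmed mean of M values (TMM), a factor for library size and composition. Levels set between genes are FPKM, the authors' values of fragments per length of transcript and depth of library. A gene is counted as higher or lower when it differed by at least 1.5-fold. Among the markers of luminal prostate cells, all 10 given here had reads, with summed reads of 15147 in control and 20921 in Akt1/2 DKO cells. Of these 10, 2 were higher and 6 lower, beside 15.9% higher and 15% lower over all genes with at least 10 reads. The 2 higher were KRT8, with 6408 and 12815 reads, and KRT18, with 2433 and 5306. The rise of the luminal sum rests on these keratins. The markers of basal epithelium had 2 and 0 reads in sum, and their defining genes KRT5 and TP63 had 0 reads in both libraries. The markers of fibroblasts had 1035 and 237 reads in sum, of which VIM gave 897 and 84. Summed reads of leukocyte markers were 55 and 79, with CD3E and MS4A1 at 0 in both libraries, and those of neuroendocrine markers were 2822 and 4442. Of the markers other than luminal ones with at least 100 reads, VIM and the neuroendocrine CHGA, with 340 and 2 reads, were lower in Akt1/2 DKO cells. The neuroendocrine ENO2, with 1404 and 3198, and the collagen gene COL1A1, with 55 and 106, were higher. The other neuroendocrine markers were SYP, with 752 and 998 reads and a log2 fold change of 0.26, and CHGB, with 326 and 244, at -0.57. The rise of the neuroendocrine sum rests on ENO2. The part of these markers in the results was not tested.

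Sequences just upstream of the start sites of 3 members are shown because NR3C1 and SPDEF were the members at least 1.5-fold higher in Akt1/2 DKO cells and GATA2 was a strongly expressed member within 1.5-fold. They come from RefSeq (GRCh38.p14), whose table gave 18 start sites for 6 of the 8 members. In another annotation, GENCODE release 29, NR3C1 has 8 start sites of coding transcripts, as ERG has, against 1 for FOXA1 and 1 for HOXB13. RefSeq and GENCODE do not share all start sites. The farthest upstream NR3C1 window and the window of a downstream start, both on the minus strand, are the following.
NR3C1 chr5:143435513-143435762: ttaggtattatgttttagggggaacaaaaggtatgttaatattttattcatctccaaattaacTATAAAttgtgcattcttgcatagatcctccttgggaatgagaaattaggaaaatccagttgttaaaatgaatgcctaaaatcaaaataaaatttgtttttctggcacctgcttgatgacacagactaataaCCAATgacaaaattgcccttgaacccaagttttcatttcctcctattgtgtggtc
NR3C1 chr5:143405356-143405605: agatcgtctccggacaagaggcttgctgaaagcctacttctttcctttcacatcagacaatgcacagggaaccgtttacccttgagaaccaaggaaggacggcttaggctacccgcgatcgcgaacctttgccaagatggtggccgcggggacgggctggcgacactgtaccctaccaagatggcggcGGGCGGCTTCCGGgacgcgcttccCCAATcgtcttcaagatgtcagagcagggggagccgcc
SPDEF chr6:34556334-34556579: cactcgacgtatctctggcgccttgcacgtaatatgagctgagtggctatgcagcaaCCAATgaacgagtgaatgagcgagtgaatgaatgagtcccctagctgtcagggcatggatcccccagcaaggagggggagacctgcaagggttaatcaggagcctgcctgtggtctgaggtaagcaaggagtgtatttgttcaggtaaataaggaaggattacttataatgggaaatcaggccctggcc
GATA2 chr3:128493202-128493451: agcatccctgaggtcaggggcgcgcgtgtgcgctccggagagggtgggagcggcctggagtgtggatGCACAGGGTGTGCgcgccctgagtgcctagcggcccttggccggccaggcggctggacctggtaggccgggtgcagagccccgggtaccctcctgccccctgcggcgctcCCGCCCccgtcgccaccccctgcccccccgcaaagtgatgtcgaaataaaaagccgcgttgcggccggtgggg
GATA2 chr3:128488531-128488780: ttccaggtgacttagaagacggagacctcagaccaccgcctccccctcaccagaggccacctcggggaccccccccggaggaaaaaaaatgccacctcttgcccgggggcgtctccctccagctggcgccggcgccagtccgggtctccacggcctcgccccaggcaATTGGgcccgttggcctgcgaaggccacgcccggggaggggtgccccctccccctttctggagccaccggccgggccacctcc
Each is written 5′ to 3′ along its gene, ends just before the start site, and has in capitals the letters that match a searched motif. The searched motifs were the forkhead box GTAAACA, the steroid receptor element (GNACA and TGTNC with 3 free bases between them), the GATA box AGATAA, the ETS box CCGGAAG, the grainyhead box AACNGGTT, the GC box GGGCGG, the CCAAT box and the TATA box TATAAA, each on both strands.

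The NR3C1 windows differ in base composition. The farthest upstream one is 32.8% G or C, holds 0 CpG pairs and matches a TATA box, whereas the downstream one is 59.6% G or C with 20 CpG pairs and matches a GC box directly beside an ETS box on the opposite strand. Both windows match a CCAAT box. The first GATA2 window, at 72.8% G or C with 24 CpG pairs, holds a match to the steroid receptor element that begins 183 bases before the start site; with its free bases, the pattern matches there on both strands. Letters of that element are in 0.328% of the 35093 distinct upstream windows of 250 bases in the RefSeq table, those of the ETS box in 8.52%, of the GC box in 42.6%, of the CCAAT box in 32% and of the TATA box in 10.7%. A forkhead match is shown because FOXA1 and the FOXO factors downstream of AKT bind this class of site. It was found in 1 of the 18 members' windows, that of a further NR3C1 start, on the opposite strand and beginning 59 bases before the start. All 250 bases of that window lie in annotated NR3C1 exons, and NR3C1 had more windows searched than any other member.
NR3C1 chr5:143403326-143403352: aaggggcggcTGTTTACttcctttttt
Capitals in this stretch mark the forkhead match alone, which 2.98% of all upstream windows hold. The GATA box was present in 9.17% of all windows and the grainyhead box in 1.49%. A match is a description of letters, and no binding was measured here.

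Levels of the 8 members fell into 3 ranges. Expressed in FPKM with the interval of the count behind it, FOXA1 stood at 87.38 (84.0 to 90.9) in control and 106.47 (103 to 110) in Akt1/2 DKO cells, GATA2 at 82.91 (79.3 to 86.6) and 72.29 (69.1 to 75.6), and HOXB13 at 67.88 (65.2 to 70.7) and 23.11 (21.6 to 24.7). GRHL2 stood at 47.24 (45.0 to 49.5) and 30.93 (29.3 to 32.6), and SPDEF at 40.32 (37.5 to 43.3) and 62.83 (59.4 to 66.4). NR3C1 was low in both, at 1.20 (0.909 to 1.55) and 6.86 (6.18 to 7.59), and ERG and PGR had 0 reads in both libraries. The control order of levels was therefore FOXA1, GATA2, HOXB13, GRHL2, SPDEF and NR3C1, in which only FOXA1 and GATA2 had overlapping intervals. In Akt1/2 DKO cells the order was FOXA1, GATA2, SPDEF, GRHL2, HOXB13 and NR3C1, and no neighbours overlapped. HOXB13 thus moved from the third to the fifth place and SPDEF from the fifth to the third. These intervals cover counting error and not the transcript length assumed in FPKM, on which an order between genes also depends. Of the summed FPKM of the members, 326.93 in control and 302.49 in Akt1/2 DKO cells, HOXB13 made up 20.8% and 7.64%, and SPDEF 12.3% and 20.8%. Their sum therefore fell far less than HOXB13 did.

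**Figure D1:**
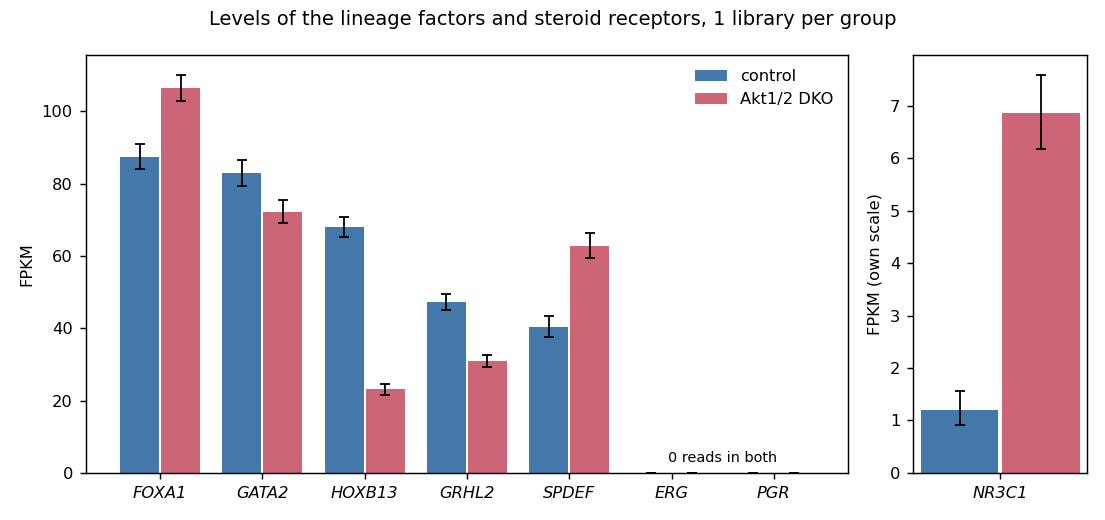
Level of each member in FPKM (vertical axis) in the control library (blue) and the Akt1/2 DKO library (red), with NR3C1 on an axis of its own. Bars are single libraries and error bars are 95% intervals of the count; HOXB13 drops from 67.88 to 23.11, SPDEF climbs from 40.32 to 62.83, and ERG and PGR have 0 reads.

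Levels were also ranked among all genes with any read in the same library, 14616 in control and 14855 in Akt1/2 DKO cells. FOXA1 was at percentile 93.2 of FPKM in control and 94.6 in Akt1/2 DKO cells, and GATA2 at 92.8 and 91.6. HOXB13 went from percentile 90.8 to 72.9 and GRHL2 from 86.1 to 79.1. SPDEF went from 83.6 to 90.2 and NR3C1 from 23.0 to 45.4. FOXA1, GATA2, HOXB13, GRHL2 and SPDEF were thus among the more strongly expressed genes of both libraries, and NR3C1 was below the middle of the ranks in both.

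Of the 6 members with reads, 3 differed by at least 1.5-fold, NR3C1 and SPDEF higher and HOXB13 lower in Akt1/2 DKO cells. Among the 13318 genes whose reads from both libraries sum to 10 or more, 4117 differed by that much, or 30.9%, of which 2120 (15.9%) were higher and 1997 (15%) lower. At least 2-fold differences were found for HOXB13 and NR3C1, against 18% of all genes. All 6 members have at least 100 reads, and among the 10956 genes as well covered 23.2% differed by 1.5-fold. The interval left out a fold of 1 for all 6, as it did for 59.2% of all genes, so with these counts even small differences pass it. By FPKM the count was 4 of 6, with GRHL2 added, against 31% of 13124 genes. With so few members, 3 of 6 against 30.9% is a description of these genes and not a finding about the group. The median log2 fold change of the 6 was 0.01, the same as the 0.01 of all genes tested, whose median absolute change was 0.33.

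**Figure D2:**
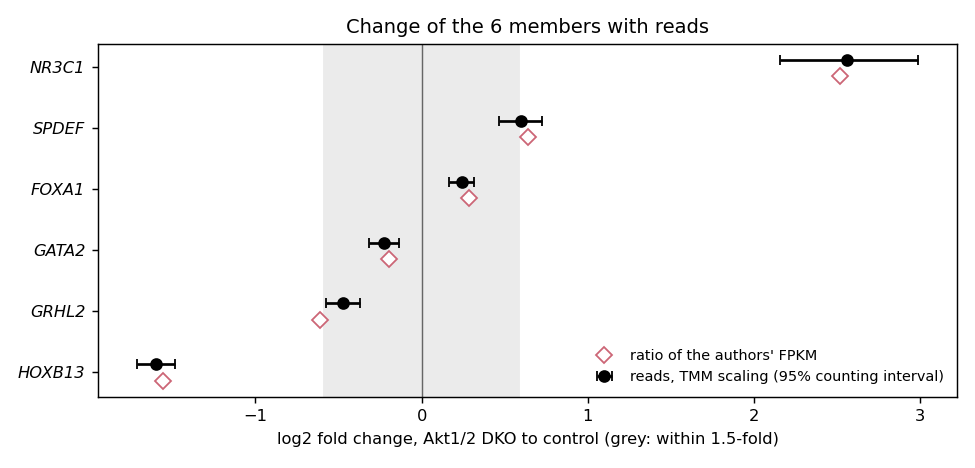
Log2 fold change of Akt1/2 DKO to control (horizontal axis) of the 6 members with reads, as scaled reads with 95% counting intervals (black) and as the ratio of the authors' FPKM (open diamonds). NR3C1 and HOXB13 lie outside the grey band of 1.5-fold by both measures, SPDEF lies at its edge, and GRHL2 passes it only by FPKM.

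HOXB13 (ENSG00000159184, GRCh38 chr17:48724763-48729178, minus strand) had 2363 reads in control cells and 865 in Akt1/2 DKO cells. The Akt1/2 DKO value was the lower by a factor of 3.03 (2.80 to 3.28), a log2 fold change of -1.60 (-1.71 to -1.49). A change at least as large was seen in 10.9% of all tested genes and in 5.84% of those with at least 100 reads. The gene has 1 coding transcript of 2 exons, so no switch between annotated coding transcripts enters its FPKM, which gave a log2 fold change of -1.55. A comparison between members needs no scaling of the libraries. Reads of FOXA1 per read of HOXB13 went from 1.06 to 3.80, a 3.58-fold change (3.26 to 3.93), and reads of HOXB13 per read of SPDEF from 3.08 to 0.674, a 4.57-fold fall (4.06 to 5.16).

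The paralogs HOXA13 and HOXC13, in other HOX clusters, went the opposite way to HOXB13. HOXA13, which patterns limb and genital tract, had 30 reads in control and 357 in Akt1/2 DKO cells, a log2 fold change of 3.42 (2.89 to 4.01). HOXC13, a factor of hair and nail, had 67 and 354 reads, or 2.25 (1.87 to 2.65). The remaining paralog, HOXD13, had 0 and 1 reads. Both paralogs with at least 10 reads were therefore higher, beside 15.9% of all genes, and so few genes allow only a description. HOXB13 supplied 95.3% of the summed FPKM of the 4 paralogs in control but 53.4% in Akt1/2 DKO cells, while the sum went from 71.22 to 43.27. Within its own cluster HOXB13 also stood apart from its neighbours. The nearest gene, PRAC2, lies 5 bases away on the annotation and had 43 and 74 reads, a log2 fold change of 0.63 (0.07 to 1.21). Because the labels and methods do not state whether counting used strand, reads at the shared edge of such close genes are uncertain. The 7 other HOXB genes among its measured neighbours, named after their values were seen, lay between 0.32 for HOXB4, with 21 and 29 reads, and 2.04 for HOXB9, with 28 and 128 reads. On the other side TTLL6 had 12 and 3 reads, a log2 ratio of -2.15 (-4.61 to -0.26). Among the genes of chromosome 17 with at least 50 reads, whose median was 0.02, 2.07% had a log2 fold change as low as that of HOXB13 or lower.

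FOXA1 (ENSG00000129514, GRCh38 chr14:37589984-37596059, minus strand) had 2511 reads in control and 3289 in Akt1/2 DKO cells. That is 1.18-fold (1.12 to 1.24), a log2 fold change of 0.24 (0.17 to 0.32), and 60.4% of all genes changed at least as much. FOXA1 was the most strongly expressed member in both libraries, and its difference was smaller than the median absolute change of all genes. Its paralogs FOXA2 and FOXA3, the liver and gut members of the family, had at most 1 read in either library, so FOXA1 gave 99.9% and 100% of the family's FPKM. TTC6, on the opposite strand, shares 213 bases with it. Of the measured genes that do not overlap it, the nearest on 1 side was MIPOL1, with 125 and 171 reads and a log2 fold change of 0.30 (-0.04 to 0.65). On the other side it was the somatostatin receptor SSTR1, 611940 bases away, with 213 and 15 reads and -3.98 (-4.84 to -3.22). The pioneer factor thus stayed within 1.5-fold, while this distant neighbour was much lower.

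GATA2 (ENSG00000179348, GRCh38 chr3:128479427-128493185, minus strand) had 2031 reads in control and 1924 in Akt1/2 DKO cells. Its log2 fold change was -0.23 (-0.32 to -0.14), 1.17-fold lower (1.10 to 1.25), and 62.1% of all genes changed at least as much. The chromosome it lies on did not stay level. Of the 665 genes of chromosome 3 with at least 50 reads, 578 had a log2 fold change below 0 and 87 above it, with a median of -0.53, whereas the medians of the other chromosomes ran from -0.20 to 0.12. GATA2 therefore lay 0.31 above the median of its chromosome on the log2 scale, with 77.1% of the chromosome's genes at or below it. All of the 20 measured genes around it were below 0, with a median of -0.73. The translation factor gene EEFSEC had 508 and 372 reads, -0.60 (-0.80 to -0.40), and RPN1, a subunit of the oligosaccharyltransferase, had 5980 and 3222 reads, -1.04 (-1.10 to -0.98). The cause of this shift of chromosome 3 was not tested.

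Among the other GATA factors, GATA3, the factor of luminal breast and T cells, had 346 reads in control cells and 1 in Akt1/2 DKO cells. The log2 ratio was -8.58 (-13.89 to -6.10). GATA6, an endoderm factor, had 67 and 70 reads, -0.09 (-0.59 to 0.42), and GATA1, GATA4 and GATA5 had at most 5 reads in either library. Of the summed FPKM of the family, 97.01 in control and 74.76 in Akt1/2 DKO cells, GATA2 made up 85.5% and 96.7%. The antisense gene GATA2-AS1 overlaps GATA2 by 3974 bases and was not analysed here, and reads from it cannot be told apart from those of GATA2 without strand.

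SPDEF (ENSG00000124664, GRCh38 chr6:34537802-34556333, minus strand) had 766 reads in control and 1283 in Akt1/2 DKO cells. The 1.51-fold difference (1.38 to 1.65), a log2 fold change of 0.60 (0.47 to 0.73), sat on the threshold. It went below it, to 0.57, when the scaling was set by genes outside chromosome 3. A difference this large was common, being reached by 30.3% of all genes and 22.7% of those with at least 100 reads. Its chromosome gave no such shift, since chromosome 6 had a median of 0.08. Of the 20 measured genes around SPDEF, 0 were 1.5-fold higher, beside 15.9% over all genes. Flanking PACSIN1 had 632 and 884 reads, 0.34 (0.19 to 0.48), and C6orf106 had 1344 and 1786, 0.26 (0.16 to 0.36). SPDEF had the highest FPKM of 27 ETS factors in both libraries, with 16.5% of the family's summed FPKM in control and 20.6% in Akt1/2 DKO cells.

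Among the other ETS factors, more passed 1.5-fold upward than downward. Of 25 listed besides SPDEF and ERG, 20 had at least 10 reads, 7 of them higher and 1 lower by 1.5-fold, beside 15.9% higher and 15% lower over all genes, with a median log2 fold change of 0.24 beside 0.01. ETS2 had 192 and 695 reads, 1.71 (1.47 to 1.95), and ETV1, which like ERG is a partner in prostate cancer fusions, had 100 and 341 reads, 1.62 (1.30 to 1.96). By FPKM, ETS2 was at 1.40 and ETV1 at 1.23, each below its interval but still past 1.5-fold. The epithelial factor ELF3 had 401 and 757 reads, 0.77 (0.59 to 0.95), and the repressor ETV6 had 84 and 182, 0.97 (0.59 to 1.36). ELK3, a serum response cofactor, was the lower one, with 64 and 40 reads, -0.83 (-1.43 to -0.23), but within 1.5-fold by FPKM at -0.39. Also higher, on fewer reads, were ELF5 with 6 and 54, FEV with 26 and 56 and ETV7 with 1 and 49. The ETS factors with the most reads stayed within 1.5-fold, at -0.20 for ERF, 0.04 for ELK1, 0.54 for ELK4 and 0.42 for EHF, although the FPKM ratio turned the sign of ERF to 0.21 and of ELK4 to -0.08.

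ERG (ENSG00000157554, GRCh38 chr21:38380027-38661780, minus strand) had 0 reads in control and 0 in Akt1/2 DKO cells. A count of 0 allows up to 3 reads, or 0.301 and 0.28 CPM, counts normalised to the total reads of the library. No fold was computed. ERG transcript was not detectable at this depth in either library, while TMPRSS2, the usual fusion partner that drives ERG in prostate cancer, had 219 and 53 reads. The endothelial markers, a cell type in which ERG is normally on, had 6 and 10 reads in sum, with CDH5 and EMCN at 0 in both libraries, and the related factors FLI1 and ETS1 also had 0 reads in both. Next to ERG on chromosome 21, ETS2 lies 143527 bases away and was higher as given above, whereas DYRK1A had 571 and 530 reads, -0.26 (-0.43 to -0.08).

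GRHL2 (ENSG00000083307, GRCh38 chr8:101492432-101669726, plus strand) had 1720 reads in control and 1373 in Akt1/2 DKO cells. Its log2 fold change was -0.47 (-0.58 to -0.37), 1.39-fold lower (1.29 to 1.49), and 37.3% of all genes changed at least as much. By FPKM the log2 fold change was -0.61, past the 1.5-fold threshold. The transcript length that reads and FPKM together imply was 3.65 kb in control and 4.14 kb in Akt1/2 DKO cells, so the measures differ by the length the authors' FPKM assumed. GRHL2 has 3 coding transcripts of 2140 to 5239 bases. Among 10569 well covered genes, 18.7% had an implied length that differed by over 10% between the libraries. GRHL1, its paralog in epithelia, had 121 and 187 reads, 0.48 (0.14 to 0.82), opposite in sign to GRHL2, and GRHL3 had 0 and 1 reads. GRHL2 gave 93.3% and 84.9% of the family's summed FPKM. Chromosome 8 had a median of -0.20, of which GRHL2 was 0.27 below. On its sides, ZNF706 had 436 and 485 reads, 0.00 (-0.18 to 0.19), and NCALD 4 and 16 reads, 1.85 (0.22 to 3.89).

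Between members with moderate differences, the ratio within a library was again free of scaling. Reads of SPDEF per read of GRHL2 rose 2.10-fold (1.87 to 2.36) from control to Akt1/2 DKO cells. Reads of FOXA1 per read of GATA2 rose 1.38-fold (1.27 to 1.5), and those of GATA2 per read of GRHL2 1.19-fold (1.08 to 1.31). The epithelial factors SPDEF and GRHL2 had log2 fold changes of opposite sign, so by arithmetic their ratio changed by more than either gene did.

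**Figure D3:**
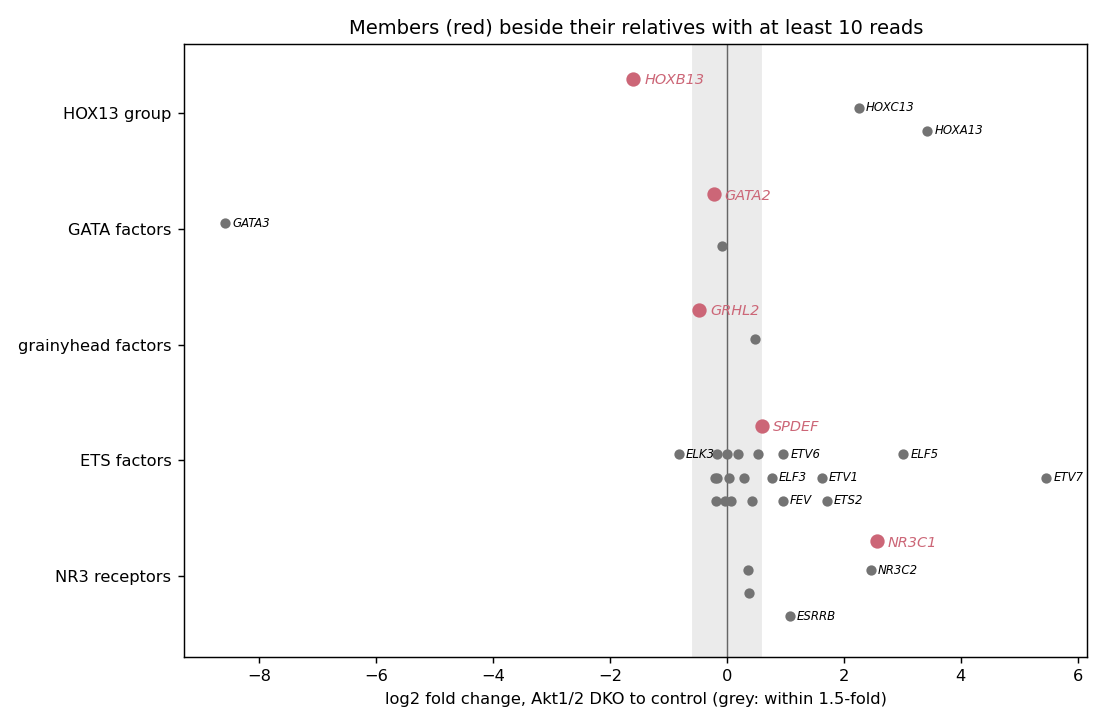
Log2 fold change of Akt1/2 DKO to control (horizontal axis) of 5 members (red) and of their relatives with at least 10 reads (grey points, named when past 1.5-fold), 1 family per row. HOXB13 is at -1.60 while HOXA13 and HOXC13 are at 3.42 and 2.25, GATA3 is at -8.58, and NR3C1 and NR3C2 lie side by side at 2.56 and 2.46.

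NR3C1 (ENSG00000113580, GRCh38 chr5:143277931-143435512, minus strand) had 57 reads in control and 373 in Akt1/2 DKO cells. The increase was 5.90-fold (4.46 to 7.94), a log2 fold change of 2.56 (2.16 to 2.99), the largest among the members. Of all tested genes 5.88% changed at least as much, and 2.93% of those with at least 100 reads. The ratio to HOXB13 shows the span of the members, since reads of HOXB13 per read of NR3C1 went from 41.5 to 2.32, a fall of 17.9-fold (13.3 to 24.3). Even so, FOXA1 kept 8.82 reads per read of NR3C1 in Akt1/2 DKO cells. The chromosome was level, with a median of 0.01 on chromosome 5, where 97.4% of genes were at or below NR3C1. Of the 20 measured genes around it, 5 were higher and 1 lower by 1.5-fold, with a median of 0.03. Over all genes 15.9% were higher and 15% lower. ARHGAP26, next to it, had 48 and 145 reads, 1.45 (0.97 to 1.95), or 0.74 by FPKM, and YIPF5 had 286 and 320, 0.01 (-0.22 to 0.25). Gene-level reads do not say which of the start sites shown above was used.

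The mineralocorticoid receptor NR3C2, the closest relative of NR3C1, had 31 reads in control and 189 in Akt1/2 DKO cells, a log2 fold change of 2.46 (1.91 to 3.06). These receptors for adrenal steroids thus had like differences, with overlapping intervals, from genes on different chromosomes. Of 5 other receptors of the NR3 subfamily that were listed, 4 had at least 10 reads, with 2 higher, 0 lower and a median of 0.72. Over all genes 15.9% were higher and 15% lower, with a median of 0.01. The estrogen-related receptor ESRRA had the most reads, 969 and 1392, at 0.37 (0.25 to 0.49), and ESR2, estrogen receptor beta, had 14 and 20, at 0.37 (-0.69 to 1.46). ESRRB was the other one past 1.5-fold, on 3 and 7 reads, with a log2 ratio of 1.07 (-1.06 to 3.66).

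PGR (ENSG00000082175, GRCh38 chr11:101029624-101130524, minus strand) had 0 reads in control and 0 in Akt1/2 DKO cells. The floor of 3 reads is 0.301 and 0.28 CPM in these libraries. PGR-AS1 overlaps it by 1448 bases on the opposite strand. The genes around PGR were not level. Of its 20 measured neighbours, 19 had a log2 fold change above 0, with a median of 1.49, although chromosome 11 had a median of 0.02. By 1.5-fold, 11 were higher and 0 lower, beside 15.9% higher and 15% lower over all genes. Of the 20, 5 had under 50 reads in the 2 libraries together. ARHGAP42 had 16 and 84 reads, 2.24 (1.46 to 3.11), and CEP126, a centrosome protein, 5 and 23, 2.05 (0.63 to 3.80). The silent receptor gene therefore lay among neighbours with more reads in Akt1/2 DKO cells.

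**Figure D4:**
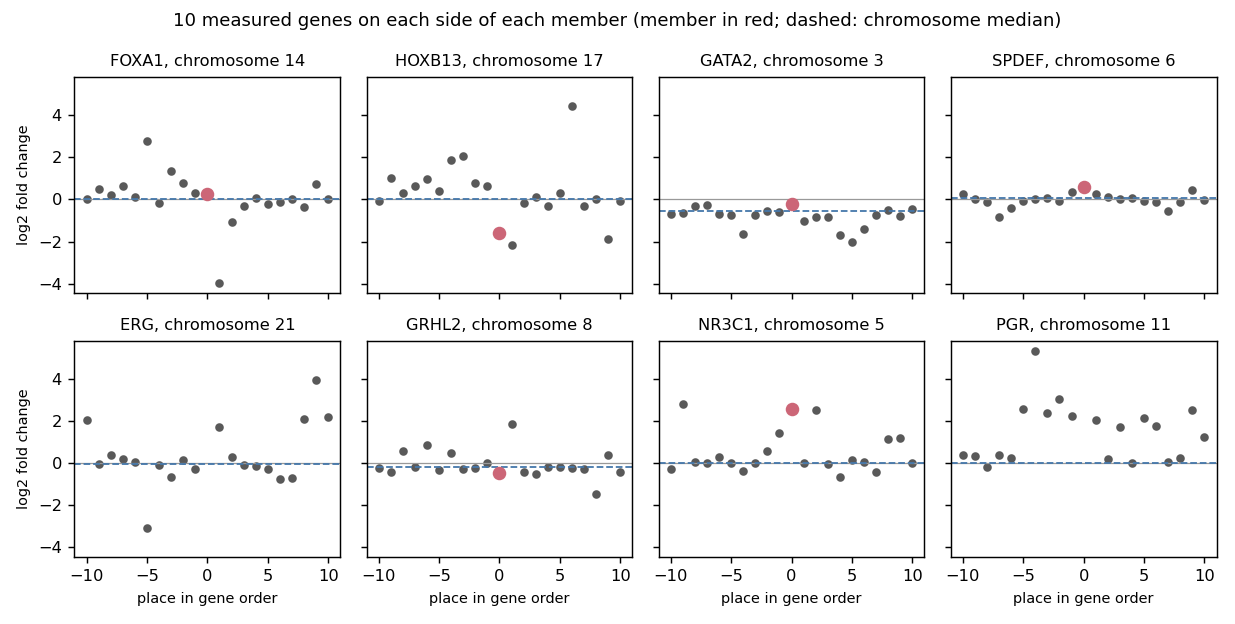
Log2 fold change of Akt1/2 DKO to control (vertical axis) of the 10 measured genes on each side of each member by their place in gene order (horizontal axis), with the member in red where it had reads, the chromosome's median dashed and a library under 3 reads set to 3. All 20 genes around GATA2 lie below 0, 19 of 20 around PGR lie above it, and HOXB13 lies below the HOXB genes to its left.

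Steroid receptors need chaperones to bind hormone. Of 13 listed chaperones and cochaperones, all had at least 100 reads, with 1 higher, 2 lower and a median log2 fold change of -0.09, beside 23.2% past 1.5-fold in either direction over all genes as well covered. HSP90AA1, the inducible HSP90, had 24466 and 16590 reads, -0.71 (-0.74 to -0.68), and FKBP5, a cochaperone that steroid receptors themselves induce, had 3554 and 2608, -0.60 (-0.67 to -0.52). FKBP5 was within 1.5-fold under other settings, at -0.55 by total count, -0.54 by the upper quartile and -0.56 by FPKM. BAG1, a nucleotide exchange factor of HSP70, had 1367 and 3053, 1.01 (0.92 to 1.10). Those with the most reads besides these stayed within 1.5-fold, HSPA8 at -0.24, HSP90AB1 at -0.13 and FKBP4 at 0.07.

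Of 15 listed coregulators of steroid receptors, 14 were tested, each with at least 100 reads. Of these, 1 was higher and 2 were lower, beside 23.2% in either direction over all genes as well covered, with a median of -0.09. NCOA2, a p160 coactivator, had 843 and 439 reads, -1.09 (-1.26 to -0.92), and PIAS1, a SUMO ligase, had 527 and 367, -0.67 (-0.87 to -0.48). NRIP1, a corepressor, had 112 and 215, 0.79 (0.46 to 1.13). PRMT1, NCOR1, NCOA4 and TLE3, those with the most reads, were at -0.25, -0.37, -0.47 and -0.03.

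Genes that glucocorticoids induce through NR3C1 in many cell types went both ways. Of 16 listed, 14 were tested, with 3 higher, 4 lower and a median of 0.03, beside 15.9% higher, 15% lower and a median of 0.01 over all genes. The phosphatase gene DUSP1 had 53 reads in control and 333 in Akt1/2 DKO cells, 2.50 (2.08 to 2.95). SGK1, a serum- and glucocorticoid-induced kinase of the AKT-related group, had 2 and 90 reads, a log2 ratio of 5.34 (3.45 to 8.41), and CRISPLD2 had 9 and 20, 1.0 (-0.20 to 2.32). The lower ones were FKBP5, given above, the metallothioneins MT2A with 543 and 323 reads, -0.90 (-1.10 to -0.70), and MT1X with 234 and 51, -2.35 (-2.81 to -1.90), and the lipase inhibitor ANGPTL4 with 334 and 194, -0.93 (-1.20 to -0.67). ZBTB16, PER1 and NFKBIA, among the most abundant, were at 0.27, 0.47 and 0.03, and TSC22D3 and KLF9, both common glucocorticoid targets named after their values were seen, were at -0.49 and -0.55. No hormone treatment is named in the labels.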

How the data were processed

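RNA sequencing was analysed from 1 library of control and 1 of Akt1/2 DKO CWR22rv1 cells, each made from total RNA extracted with TRIzol. Per gene, the authors deposited an estimated count of reads, not normalized, and an FPKM value, for both libraries. The submitters' processing notes name fastp 0.20.0, TopHat, Cufflinks and edgeR and the build GRCh38.p10, without saying which step each served. Strand use in counting is not given in the sources used here. The deposited columns of fold change, p-value and FDR, the ontology summary and the correlation of the libraries were the authors' own comparisons and were not used. Of the 19607 gene identifiers, 19571 were found in GENCODE release 29 (GRCh38), which gave coordinates and overlaps.

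Each estimated count was rounded to a whole number of reads. Libraries were scaled by TMM (edgeR 4.0.16 in R 4.3.3) over the 13318 genes whose reads from both libraries sum to 10 or more, which gave an Akt1/2 DKO to control size ratio of 1.11. A fold change is the scaled ratio of reads with no prior count, with an exact (Clopper-Pearson) 95% interval given the sum of both libraries, and a level has an exact Poisson interval (scipy 1.17.1). Reads are not independent molecules, so intervals and the floor of 3 reads cover counting error only. No test was run, since each group is 1 library. The code was tested on simulated data. Alternatives were other scalings, the FPKM ratio, a prior count, other read minimums, a 2-fold threshold and a call that also needs the interval.

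Text names the members, AKT1 and AKT2, the nearest measured gene on each side of a member and, from lists of relatives, cofactors and targets, up to 4 genes with the most reads and those past 1.5-fold with at least 100 reads, with exceptions marked or given with their reads. Some genes of the lists are not reported here and are left out of their counts. The members and lists were chosen with earlier results of these data known. Upstream sequences came from RefSeq (GRCh38.p14), with annotated exonic bases left out of longer stretches.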

Additional observations from a re-analysis of the deposited data

How the results depend on the processing

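With 1 library per group, nothing here separates the knockout from the clone, the culture or the library preparation. The calls of SPDEF, FKBP5, EEFSEC and ELK4 depend on the scaling and those of GRHL2, GRHL1, FKBP5, EEFSEC, ELK3 and CRISPLD2 on the unit. Intervals shrink with depth, so those of FOXA1, HOXB13 and GATA2 are narrow and that of NR3C1 is the widest of the 6. Depth also limits ERG and PGR, for which up to 3 reads in each library cannot be seen. No paired analysis was possible because control and Akt1/2 DKO are a single library each, and leaving out a replicate was not possible for the same reason.

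HOXB13 ranged from -1.62 to -1.55 and NR3C1 from 2.52 to 2.61 over 10 settings, past 1.5-fold in all. FOXA1 ranged from 0.22 to 0.29 and GATA2 from -0.25 to -0.17, within 1.5-fold in all. SPDEF ranged from 0.57 to 0.65 and was past the threshold in 9 of 10 settings, and GRHL2 from -0.61, by FPKM, to -0.42. The members past 1.5-fold were 2 with TMM from genes outside chromosome 3, 4 by FPKM and 2 at 2-fold. Across all genes, 2391 of the 13318 differed by at least 2-fold, 5969 differed by 1.5-fold with no minimum of reads and 2967 with at least 10 reads in each library. The higher count without a minimum comes with more genes tested, and the lower one with fewer, but the share of tested genes moved as well. That share was above 30.9% with no minimum of reads and below it with at least 10 reads in each library. The 30.9% set beside the members therefore depends on the read minimum. Of the values of the other named genes, 24 of 1020 moved by more than their counting interval and 0 changed sign among those past 1.5-fold.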

Other observations

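Several other transcription factors of epithelia differed by at least 1.5-fold between the libraries, as did 15.9% of all genes upward and 15% downward. They are given as single values, with no count over their list and no direction drawn for it. For each, the reads in control and then in Akt1/2 DKO cells are followed by the log2 fold change with its interval. TBX3, a T-box repressor, had 2844 and 6030 reads, 0.94 (0.87 to 1.0), and XBP1, the factor of the unfolded protein response and of secretory cells, 958 and 2010, 0.92 (0.81 to 1.03). CREB3L4, a membrane-bound factor of the prostate, had 162 and 809 reads, 2.17 (1.93 to 2.42), OVOL1, a zinc finger factor of epithelial identity, 70 and 285, 1.88 (1.49 to 2.28), and SOX9 135 and 262, 0.81 (0.50 to 1.12). MEIS1, a homeobox partner of HOX proteins that include HOXB13, had 13 and 53 reads, 1.88 (0.98 to 2.88). TFAP2A, also among the most abundant, was at 0.31 (0.15 to 0.47). Likewise within 1.5-fold were KLF5, with 254 and 369 reads, at 0.39 (0.16 to 0.63), and OVOL2, with 82 and 114, at 0.33 (-0.10 to 0.75). In the same libraries, of the 10 luminal markers, KLK2, KLK3, KLK4, TMPRSS2, SLC45A3 and STEAP2 were lower and the keratins KRT8 and KRT18 were higher. The secretory gene ACPP, with 48 and 51 reads, and FOLH1, with 1374 and 1309, were within 1.5-fold. These markers too stand beside shares of 15.9% higher and 15% lower over all genes.

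Around PGR, MAML2, a Notch coactivator, had 0 reads in control and 135 in Akt1/2 DKO cells, and the phosphatase gene MTMR2 had 231 and 1510, a log2 fold change of 2.56. Both were named after their values were seen. The 20 genes span GRCh38 chr11:95067197-105982092, and the cause of their common direction was not tested.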
